A study of Homo sapiens with 6 samples.

Results

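The genes described here are 9 members of the p53 network, namely MDM2, MDM4, TP53I3, ZMAT3, DDB2, RRM2B, FDXR, CCNG1 and GADD45A, in MDA-MB-231 cells with and without Parishin B (PB). They were found by gene symbol among the 61806 genes of the table, and each symbol matched 1 row. MDA-MB-231 is a line of human breast cancer cells of the triple-negative type, and PB is the compound that the study examined as an inhibitor of the pseudokinase TRIB3. The 2 groups were control cells and cells given 20 μM PB for 24 h, with 3 samples each, and no vehicle is named for the RNA-seq controls. Both groups share the genotype of this 1 line, and nothing in the labels says whether the 3 samples came from separate cultures. The spread between samples on which the p-values rest may thus be technical. In the main edgeR test this spread was shared over all genes, so it is not each gene's own.

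p53 is a transcription factor that is stabilised by DNA damage and other stresses and then switches on genes for cell cycle arrest, DNA repair, metabolism and apoptosis. One of these genes encodes MDM2, the ubiquitin ligase that sends p53 to the proteasome, which closes a feedback loop. MDA-MB-231 cells are known to carry a missense mutant p53 that binds its DNA sites poorly, and several of these genes are also known targets of other transcription factors. This genotype is background and was not read from these libraries.

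Stretches that match the p53 consensus are shown for the members whose promoters held a full match, since p53 is the factor that these genes are grouped by. A full match is a pair of 10-base half-sites, and the search used the p53 half-site consensus, which reads the same on both strands, with its central C and G required, at most 2 mismatches over the 20 bases and a spacer of at most 1 base. In RefSeq promoter windows of GRCh38.p14, from 250 bases before to 50 bases after a start site, 7 of the 9 members had an entry, with 14 windows in all. RRM2B and GADD45A had none. MDM2 and DDB2 held a full match and the other 5 did not, against 0.674% of the 27305 gene symbols searched. The limits of the search were set after its matches were seen, so these shares are not a test. Sites outside the windows were not searched. The stretch below lies before the second MDM2 start, inside the gene as the table draws it (chr12:68808867-68809016, plus strand), and the DDB2 site lies just after its second start (chr11:47214979-47214999, plus strand). Capitals mark the half-sites of the matches that met these limits. Sites that the limits leave out, such as those without the required C or G, stay in lower case.
MDM2 second start: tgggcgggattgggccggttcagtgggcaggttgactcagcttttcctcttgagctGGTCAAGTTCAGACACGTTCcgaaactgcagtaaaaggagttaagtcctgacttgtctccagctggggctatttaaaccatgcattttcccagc
DDB2 site: GAACAAGCCCtGGGCATGTTT
The DDB2 site matched the consensus with 0 mismatches and a spacer of 1 base, and the MDM2 site with 2 mismatches and no spacer. Another match in the DDB2 window, with 1 mismatch, shares a half-site with the one shown. A match describes letters only and was not tested for binding. The counts are summed over a whole gene, so they do not show which MDM2 or DDB2 start was used.

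Total counts per sample lay between 15681655 and 21986948, and every member had at least 161 counts in every sample. Expression is given as FPKM, the count divided by exonic length and by the total count of the sample, and changes are log2 fold changes of PB over control from edgeR's quasi-likelihood test on the raw counts. A DEG, a differentially expressed gene, passed the test at an adjusted p of 0.05 or less and differed by 1 or more on the log2 scale, up or down. VIM, CD44, AXL, CAV1 and MSN, which mark this mesenchymal-like line, summed to 1036 to 1064 FPKM in the control group and 977 to 980.3 FPKM with PB. VIM made up most of this sum, with mean levels of 603 FPKM (control) and 635 FPKM (PB, fitted log2 fold change -0.06), while CAV1 was a lower DEG (71.1 to 34.9 FPKM, log2 fold change -1.16) and MSN, CD44 and AXL fell by 0.63, 0.50 and 0.34 on the log2 scale. Of the receptor genes, ESR1 and PGR lay at or below a group mean of 0.147 FPKM. ESR1 rose from 0.073 to 0.147 FPKM on 13 to 45 counts per sample (log2 fold change 0.90, adjusted p = 0.002 in edgeR). ERBB2 rose from 2.95 to 3.59 FPKM (log2 fold change 0.14, adjusted p = 0.025 in edgeR). The epithelial markers moved with the treatment. Of 15 such genes 12 were tested, 9 of these were lower DEGs and 1, ESRP1, was a higher DEG (log2 fold change 1.63). Among all genes tested, 6.73% were lower and 5.36% were higher DEGs. The 15 genes summed to 454 to 461 FPKM in the control samples and 160.2 to 166 FPKM with PB. Most of this sum came from KRT18 (means of 286 FPKM in control and 121 FPKM with PB) and KRT8 (107 and 38.9 FPKM). CDH1, ELF3, AGR2 and CEACAM6 had 3 counts or fewer in every PB sample. Fewer cells of a type and less RNA per cell cannot be told apart in bulk RNA, and the part of these markers in the results below was not tested.

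None of the 9 members crossed the 2-fold line, while 8 of them passed the test with smaller changes in both directions. In PB-treated cells 4 members fell (CCNG1, DDB2, FDXR and MDM2), where 26.1% of all genes tested did so, and 4 rose (GADD45A, MDM4, RRM2B and TP53I3), where 24.1% did so. ZMAT3 did not pass. The count of 8 among 9 was read against the share of all 24200 genes tested that had an adjusted p of at most 0.05, which was 50.2%, and against 70.8% among the 13533 tested genes with a mean of at least 1 FPKM, where all members lay. The count of DEGs among the members was 0 by edgeR, DESeq2 and limma, against 12.1% of all genes tested (5.36% higher and 6.73% lower), and 8 members had an unadjusted p under 0.05 in the edgeR test, against 54.0% of all genes tested. The median log2 fold change was 0.05 over the 9 members and 0.011 over all genes tested.

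Measured per length in FPKM, the levels of the members spanned a far wider range than any of them moved between the groups. The coordinates below are those of the table, in the build named by the submitters (hg38). CCNG1 stood highest in the control group at 112.8 ± 5.23 FPKM (SD, n = 3), 45.1 times MDM4, the lowest at 2.50 ± 0.180 FPKM. GADD45A and RRM2B followed at 22.9 ± 0.575 and 22.6 ± 0.492 FPKM, and their samples overlapped. Then came MDM2 at 16.3 ± 0.197 FPKM, DDB2 at 6.98 ± 0.201 FPKM and TP53I3 at 5.71 ± 0.340 FPKM. ZMAT3 at 4.02 ± 0.046 FPKM and FDXR at 3.85 ± 0.231 FPKM overlapped each other. With PB the first 4 genes kept their order, no neighbours overlapped, and FDXR took the lowest place at 3.17 ± 0.402 FPKM, below MDM4 at 4.01 ± 0.101 FPKM. DDB2 went from rank 5 to rank 7, below TP53I3 and ZMAT3.

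**Figure D1:**
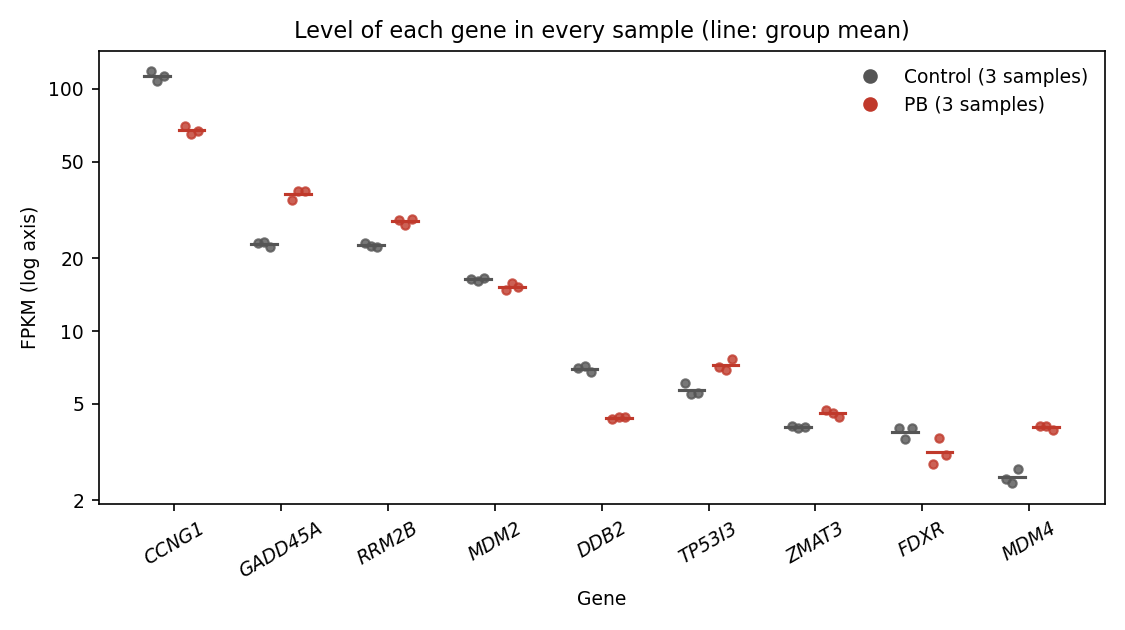
FPKM of the 9 genes on a log axis, with 1 point per sample, control in grey and PB in red, and a line at each group mean. CCNG1 is highest in both groups, and FDXR is the member whose PB samples reach into the control range.

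Among the members that fell, CCNG1 changed most. The gene (ENSG00000113328, chr5:163437569-163446151, plus strand) encodes cyclin G1, an atypical cyclin that brings the phosphatase PP2A to MDM2. The 3 control samples had 118.0, 107.5 and 113.0 FPKM and the PB samples 70.1, 65.2 and 66.7 FPKM. This was a 1.84-fold lower level (log2 fold change -0.88, standard error 0.027, adjusted p = 3.617e-232). Every PB sample lay far below every control sample.

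DDB2 (ENSG00000134574, chr11:47214465-47239217, plus strand) encodes the damage-recognition subunit that finds ultraviolet lesions in chromatin for nucleotide excision repair. It had 7.04, 7.15 and 6.76 FPKM in the control samples and 4.33, 4.40 and 4.41 FPKM with PB. With no overlap, it was 1.74-fold lower (log2 fold change -0.80, standard error 0.064, adjusted p = 1.57e-34). DDB2 is also the member whose printed site matched the p53 consensus without a mismatch, and a link to its fall was not tested.

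FDXR (ENSG00000161513, chr17:74862497-74873031, minus strand) encodes the mitochondrial reductase that passes electrons from NADPH to ferredoxins for steroid and iron-sulfur cluster synthesis. Its control samples had 3.97, 3.58 and 3.99 FPKM, and the PB samples had 2.82, 3.61 and 3.09 FPKM, so PB replicate 2 reached the control range. The log2 fold change of -0.42 (standard error 0.094, adjusted p = 3.305e-05) rests on 161 to 316 counts per sample, and the adjusted p was 0.0618 with limma on log2(FPKM + 0.1). The value was -0.34 without PB replicate 1 and -0.51 without PB replicate 2.

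MDM2 (ENSG00000135679, chr12:68808177-68845544, plus strand) fell the least of these genes. Its samples had 16.4, 16.1 and 16.5 FPKM in the control group and 14.8, 15.7 and 15.2 FPKM with PB, which did not overlap. The log2 fold change was -0.24 (standard error 0.033, adjusted p = 3.866e-12), and -0.10 (adjusted p = 0.00309) with library size alone in place of TMM normalization. MDM2 overlaps CPM, a carboxypeptidase gene on the opposite strand, by 3348 bases, and CPM had 4317 to 5688 counts in the control samples and 2285 to 2704 with PB, a log2 fold change of -0.97. The strandedness of the counting is not stated, so the share of CPM reads in the MDM2 count was not tested.

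Among the members that rose, GADD45A changed most. This gene (ENSG00000116717, chr1:67685201-67688334, plus strand) encodes a small stress protein that binds PCNA and stress kinases, and it is known to be induced by ATF4 and FOXO factors as well as by p53. The control samples had 23.1, 23.4 and 22.3 FPKM and the PB samples 34.9, 37.8 and 37.9 FPKM, with no overlap. This was a 1.47-fold rise (log2 fold change 0.56, standard error 0.046, adjusted p = 4.575e-33).

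MDM4 (ENSG00000198625, chr1:204516379-204558120, plus strand) followed closely. Its product is the relative of MDM2 that masks the activation domain of p53 and has little ligase activity of its own. It had 2.45, 2.35 and 2.70 FPKM in the control samples and 4.07, 4.06 and 3.89 FPKM with PB. Without overlap, the PB level was 1.45-fold higher (log2 fold change 0.54, standard error 0.056, adjusted p = 1.043e-20).

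RRM2B (ENSG00000048392, chr8:102204502-102238961, minus strand) encodes the small subunit of ribonucleotide reductase that supplies nucleotides for repair and for mitochondrial DNA outside S phase. It had 23.2, 22.5 and 22.2 FPKM in the control samples and 28.8, 27.3 and 28.9 FPKM with PB. These values did not overlap, and the log2 fold change was 0.20 (standard error 0.033, adjusted p = 8.369e-09). With library size alone it was 0.33.

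TP53I3 (ENSG00000115129, chr2:24077433-24085861, minus strand), a quinone oxidoreductase, gave the weakest call. It had 6.10, 5.48 and 5.55 FPKM in the control samples and 7.08, 6.92 and 7.65 FPKM with PB, and the groups did not overlap. The log2 fold change was 0.21 (standard error 0.086, adjusted p = 0.0288 in edgeR). It did not pass with DESeq2 (adjusted p = 0.125) or when edgeR was run without control replicate 2 (adjusted p = 0.106), control replicate 3 (0.102) or PB replicate 3 (0.179). The whole gene lies inside FAM228B on the opposite strand, which had 72 to 94 counts in the control samples and 180 to 272 with PB, against 217 to 335 counts on TP53I3 itself. Reads of the pair cannot be told apart here.

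ZMAT3 (ENSG00000172667, chr3:178960121-179072215, minus strand), a zinc finger protein that binds RNA and takes part in splicing, did not pass the test. It had 4.06, 3.97 and 4.03 FPKM in the control samples and 4.72, 4.61 and 4.43 FPKM with PB. The FPKM values did not overlap, but the log2 fold change after TMM normalization was 0.05 with a 95% interval from -0.04 to 0.15 (adjusted p = 0.372, edgeR). With library size alone it was 0.19 (adjusted p = 0.000267), and with limma on log2(FPKM + 0.1) it was 0.19 (adjusted p = 0.0119). Library size alone moved the median log2 fold change of all genes to 0.14, against 0.011 with TMM, and no member changed direction. In all, the FPKM values of 8 members did not overlap between groups, against 55.6% of all genes tested. They were 3 that lay lower with PB, against 21.6% of all genes, and 5 that lay higher, against 34.1%.

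**Figure D2:**
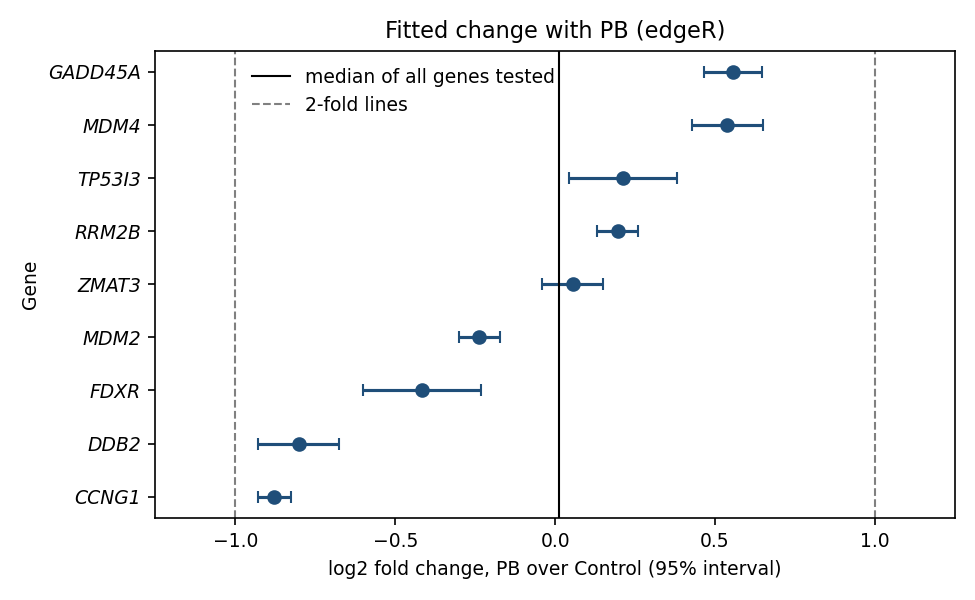
Fitted log2 fold change of PB over control for the 9 genes, with 95% intervals, a solid line at the median of all genes tested (0.011) and dashed lines at a 2-fold change. All points lie between the dashed lines, and the ZMAT3 interval spans the median.

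Ratios within a sample do not depend on the scaling between samples, and for 5 pairs they were compared with an exact two-sided permutation test. The exact test gave p = 0.1 for each pair, the smallest that 3 samples against 3 allow, and 0.1 after adjustment over the 5 pairs, so the design could not reach 0.05. In each pair the groups did not overlap. MDM2 and MDM4 act as a pair of p53 inhibitors, and their FPKM ratio was 6.71, 6.86 and 6.10 in the control samples and 3.63, 3.87 and 3.89 with PB. The ratio was thus 1.72-fold lower with PB, and MDM2 stayed above MDM4 in every sample.

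The RRM2B ratio changed most. RRM2, the S phase small subunit of ribonucleotide reductase, had 40.5 ± 1.61 FPKM without and 10.1 ± 0.517 FPKM with PB (SD, n = 3), which is a log2 fold change of -2.13. The RRM2B to RRM2 ratio was 0.548, 0.573 and 0.556 in the control samples and 2.93, 2.78 and 2.70 with PB, a 5.02-fold rise that crossed 1. RRM2B made up 35.8% ± 0.521 of the small-subunit FPKM in the control group and 73.7% ± 0.814 with PB (SD, n = 3). The share and the crossing of 1 depend on the exonic lengths used, 9153 bases for RRM2 and 5391 bases for RRM2B. The 5.02-fold rise does not depend on them. RRM1, the large subunit, fell from 39.4 ± 0.788 to 17.6 ± 0.471 FPKM (log2 fold change -1.29).

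CCNG1 and its paralog CCNG2, a cyclin gene controlled by FOXO factors, moved in opposite directions. CCNG2 rose from 4.84 ± 0.373 to 9.45 ± 0.160 FPKM (log2 fold change 0.84). The CCNG1 to CCNG2 ratio was 22.4, 23.2 and 24.5 in the control samples and 7.29, 7.02 and 7.05 with PB, 3.28-fold lower. The GADD45A to GADD45B ratio was 2.01, 1.86 and 1.83 in the control samples and 2.49, 2.90 and 2.53 with PB. GADD45B itself did not pass (log2 fold change 0.08, standard error 0.063), and GADD45G was listed at 0 in every sample. DDB2 and its binding partner DDB1 (log2 fold change -0.60) both fell, and their ratio was 0.431, 0.424 and 0.408 in the control samples and 0.362, 0.371 and 0.364 with PB, a smaller shift of 1.15-fold.

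**Figure D3:**
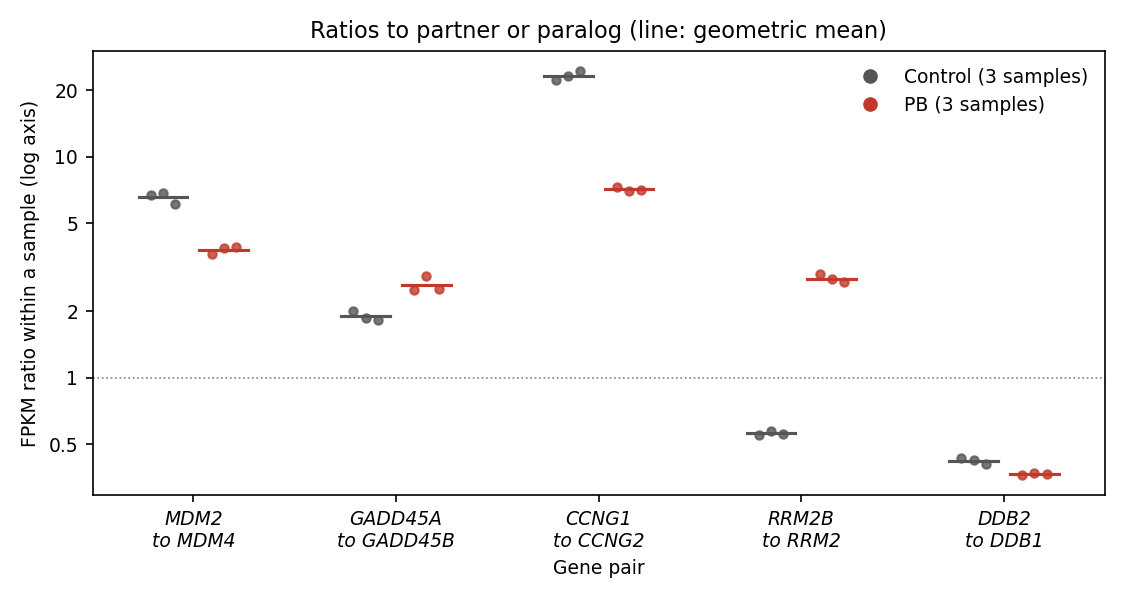
FPKM ratio of 5 members to a partner or paralog within each sample, on a log axis, with control in grey, PB in red and a line at the geometric mean. The RRM2B to RRM2 ratio passes from below 1 to above 1, and the CCNG1 to CCNG2 ratio falls from 22.4 or more to 7.29 or less.

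Among 28 other p53 targets, all of them tested, 17 fell and 8 rose at an adjusted p of at most 0.05, which is 89.3% of the list against 50.2% of all genes tested and 70.8% of those with a mean of at least 1 FPKM. DEGs numbered 11, 8 lower and 3 higher, or 39.3% of the list against 12.1% of all genes tested. The median of the list was -0.29 on the log2 scale. The list was written from general knowledge, and several of its genes were known from earlier results of these data. In the same PB samples 9 of the 12 tested epithelial markers were lower DEGs and 1 was a higher DEG, and a link was not tested.

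The 3 higher DEGs of the list are also known targets of the ATF4 and CHOP stress factors. That is background, and which factor raised them was not tested. SESN2, a sestrin that restrains mTORC1, went from 3.39 ± 0.412 FPKM in the control group up to 40.5 ± 1.03 FPKM with PB (log2 fold change 3.45, standard error 0.052). GDF15, a secreted stress hormone, rose from 3.15 ± 0.474 to 13.6 ± 0.861 FPKM (log2 fold change 1.96). TNFRSF10B, the death receptor DR5, rose from 21.0 ± 0.333 to 49.2 ± 1.58 FPKM (log2 fold change 1.10).

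The lower DEGs belonged to several roles. Of the growth genes, PLK2 fell from 14.0 ± 0.163 to 3.78 ± 0.185 FPKM (log2 fold change -2.02), and the antiproliferative gene BTG2 fell from 1.79 ± 0.147 to 0.663 ± 0.159 FPKM (-1.54). CDKN1A, the CDK inhibitor p21 and the best known p53 target, was not a DEG and fell from 23.8 ± 0.478 to 21.2 ± 0.810 FPKM (-0.30). Of 11 apoptosis genes, 7 fell and 2 rose at an adjusted p of at most 0.05. Lower DEGs numbered 4, and TNFRSF10B was a higher DEG. Among all genes tested, 6.73% were lower and 5.36% were higher DEGs. The 4 lower DEGs were PHLDA3, an AKT inhibitor (94, 83 and 130 counts in the control samples and 3, 6 and 0 with PB), AEN, an exonuclease (log2 fold change -1.70), the death receptor gene FAS (-1.49) and RPS27L (-1.12).

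BAX, the pore-forming effector, fell without crossing the 2-fold line, from 12.4 ± 0.279 to 7.46 ± 0.602 FPKM (log2 fold change -0.86). PLK3 rose by 0.86 on the same scale and was not a DEG either. The translesion polymerase gene POLH fell from 9.19 ± 0.168 to 4.91 ± 0.030 FPKM (log2 fold change -1.04). SPATA18, a gene of mitochondrial quality control, had 34, 30 and 52 counts in the control samples and 0 in every PB sample. It was at least 10.8-fold lower with PB, measured against a floor of 3 counts per library. Setting SPATA18 to that bound could not change the list's median, since the bound also lies below the median. With a mean FPKM of at least 1 required, 8 of the list were DEGs, 5 lower and 3 higher. In that fit 1377 of all 13533 genes tested were DEGs.

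**Figure D4:**
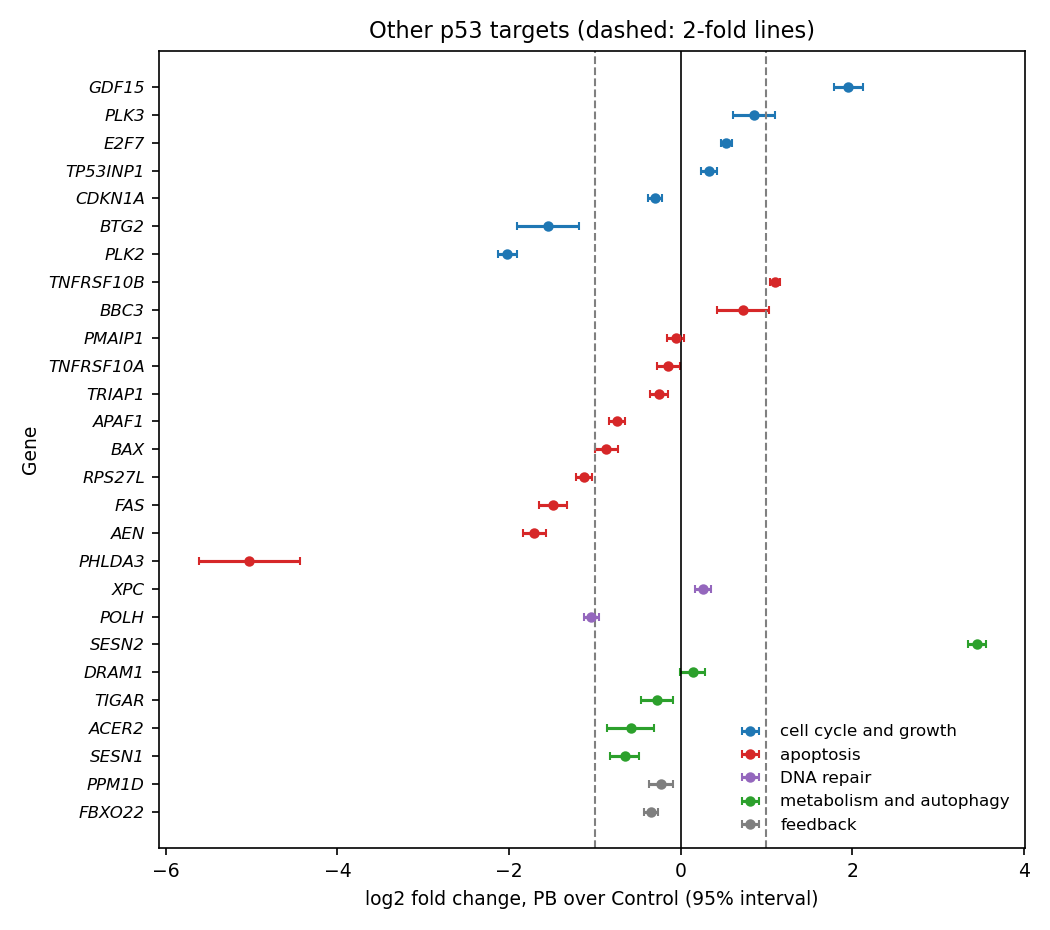
Fitted log2 fold change of PB over control with 95% intervals for 27 other p53 targets, coloured by role; SPATA18, a lower DEG, is left out because its PB samples had 0 counts. SESN2 lies farthest to the right at 3.45 and PHLDA3 farthest to the left at -5.03, and most points lie between the dashed 2-fold lines.

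Of 17 genes that act on p53 or on MDM2 proteins, 6 rose and 5 fell at an adjusted p of at most 0.05, 11 genes had an unadjusted p under 0.05, and the count of DEGs was 0 by edgeR, DESeq2 and limma. The 11 called by adjusted p are 64.7% of the list, between the 50.2% of all genes tested and the 70.8% of those with a mean of at least 1 FPKM. Of all genes tested, 54.0% had an unadjusted p under 0.05 and 12.1% were DEGs in edgeR. The largest changes were those of the checkpoint kinase genes CHEK2, from 10.4 ± 0.279 to 5.98 ± 0.151 FPKM (log2 fold change -0.93), and CHEK1, from 19.1 ± 0.457 to 12.7 ± 0.887 FPKM (-0.73). The median of the 17 was 0.04. Of 11 tested partners and paralogs of the members, 7 fell and 1, CCNG2, rose at an adjusted p of at most 0.05, RRM1 and RRM2 were lower DEGs, and the median was -0.60. These 8 called are 72.7% of the list and the 2 DEGs 18.2%, near the 70.8% of genes with a mean of at least 1 FPKM and the 12.1% of all genes tested. Their largest change short of the 2-fold line was that of CRYZ, a relative of TP53I3, from 19.3 ± 0.661 to 11.2 ± 0.128 FPKM (log2 fold change -0.92), in the opposite direction to TP53I3.

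The deposited table assigns the KEGG p53 signaling pathway to 194 genes, of which 113 were tested, including 14 pseudogenes. Of the 113, 49 fell and 31 rose at an adjusted p of at most 0.05. DEGs numbered 24, 18 lower and 6 higher. Thus 70.8% of the 113 passed, against 50.2% of all genes tested and 70.8% of those with a mean of at least 1 FPKM. DEGs made up 21.2% of the 113, against 12.1% of all genes tested. The median log2 fold change of the 113 was -0.11. Without the 14 pseudogenes, 79.8% of the 99 tested genes passed and 23.2% were DEGs. The largest decrease was that of AKR1C2, an aldo-keto reductase, from 57.3 to 1.19 FPKM (log2 fold change -5.72), and the next among genes with a symbol was SFN, the 14-3-3 sigma gene that holds CDK1 in the cytoplasm, from 4.30 to 0.133 FPKM (-5.05). FAM228B is counted in the list as well and was a higher DEG. The list also holds CDK1, CCNB1 and other cell cycle genes, so it is not a list of p53 targets alone, and 8 of the 9 members belong to it. Its genes, AKR1C2 and FAM228B among them, are those that the deposited table assigns. That assignment was not checked against the pathway itself, so the shares above are those of the assigned list.

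The genes most like CCNG1 and DDB2, the members with the largest changes, were sought by the Euclidean distance of centred log2 CPM over the 6 samples, among 13532 other genes with a mean of at least 1 FPKM. For CCNG1 they were CCDC77 (distance 0.066), HNRNPR (0.069) and SFXN1 (0.071), with log2 fold changes of -0.89, -0.91 and -0.86. For DDB2 they were PDCD5 (0.037), FARSB (0.053) and G3BP1 (0.055), with log2 fold changes of -0.80, -0.78 and -0.81. The distance is mostly that between groups, since the samples form 2 groups of 3.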

How the data were processed

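Poly(A) RNA-seq libraries from MDA-MB-231 cells, 3 control and 3 given 20 μM PB for 24 h, were grouped by their titles. The dose comes from the study's methods and the time from its results text. The authors deposited raw counts per gene, used as deposited, and FPKM values, in which a count is scaled for gene length and library total. The submitters' processing notes name HTSeq 0.6.1, Cufflinks 2.2.1, DESeq2 and hg38. The aligner and strandedness are not given in the sources used here, so overlapping genes are uncertain. Columns of per-sample values without a sample numbered 0, and 20417 of 61806 genes had no symbol.

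The 24200 genes that averaged 0.1 FPKM or more were tested with edgeR 4.0.16 in R 4.3.3 (TMM, quasi-likelihood test, Benjamini-Hochberg adjustment over all of them). The study used DESeq2, which was run as an alternative (1.42.0), as was limma 3.58.1. The prior degrees of freedom were infinite, so standard errors rest on a spread shared by all genes. Replicates differed by a chi-square per degree of freedom of 1.45 to 1.92. The procedures were tested on simulated counts.

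The members and lists were chosen with earlier results of these data known. Named genes were all members, the DEGs of each list with the 2 largest other changes, and the 3 nearest genes by pattern for 2 members; for the KEGG list, with 24 DEGs, only the 2 largest decreases with a symbol are named. Genes overlapping a member, ratio partners, CDKN1A, CDK1 and CCNB1 were named besides. The limits of the p53 site search were chosen after its matches were seen. The gene encoding p53 is not reported here. Intervals and the floor of 3 counts cover counting error or the fitted spread only.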

Additional observations from a re-analysis of the deposited data

How the results depend on the processing

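The members and lists were refitted without an expression filter, with genes averaging 1 FPKM or more, with library size alone, with DESeq2, with limma on log2(FPKM + 0.1), with a replicate block, with a DEG line of 2 on the log2 scale and with each sample left out in turn. Between 7 and 9 members had an adjusted p of at most 0.05 in the fits that kept all samples, 7 with DESeq2 and 9 with library size alone, and between 7 and 8 when a sample was left out. The count of DEGs among the members was 0 in each of these fits, as it was for the regulators of p53. The DEG line of 2 is stricter. It left 4 of the other p53 targets, 1 of the partners and paralogs and 8 of the KEGG genes as DEGs. The share of all genes tested that passed this line is not given, so these counts are not compared with a background. Leaving out a sample, with the DEG line at 1, gave 11 other targets, 2 partners and paralogs and 22 to 25 KEGG genes. No member reversed direction. The calls of TP53I3, FDXR and ZMAT3 depended on the setting as given above, and the cause was not tested. With library size alone, and with limma, the log2 fold changes of MDM2, RRM2B, TP53I3 and ZMAT3 moved by more than 1.5 times, as did that of FDXR with limma.

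The replicate numbers did not pair the samples, since deviations of same-numbered samples from their group means correlated at -0.0097, 0.0194 and -0.000449, and only samples numbered 2 correlated best with their own number. With the replicate number as a block 8 members passed, 0 were DEGs, and 11 other targets, 0 regulators, 2 partners and paralogs and 24 KEGG genes were DEGs. The mean differences of the log2 ratios are the same with and without pairing by construction, so the block says nothing about them. Depth limits FDXR and TP53I3 most, with at most 335 counts in a sample.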
